A study of Rattus norvegicus with 15 samples.

Results

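The cytochrome P450 4a hydroxylases and the arachidonic acid epoxygenases of the kidney were described together with the epoxide hydrolases and the electron donor that work with them. The 10 genes were Cyp4a1, Cyp4a2, Cyp4a3, Cyp4a8, Cyp2c23, Cyp2j4, Cyp2e1, Ephx1, Ephx2 and Por. Members were all probe sets whose gene symbol in the array annotation was one of these, which gave 24 of 26379 probe sets, with 21 on array design A, 0 on design B and 3 on design C. A probe set is a group of short oligonucleotides that reports 1 transcript, and its value is a signal intensity on a linear scale. Of the 10 genes 9 had a probe set, and Cyp2j4 was not analysed here. Cyp4a2 had no probe set of its own, since M33936_s_at is annotated to both Cyp4a2 and Cyp4a3.

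The kidneys came from 5-week-old rats. On designs B and C, kidneys 4 and 5 were from a strain congenic for chromosome 10 on the Dahl salt-sensitive (Dahl S) background (n = 2), and kidneys 1 to 3 were from Dahl S rats (n = 3). On design A, kidneys 4 and 5 are described as Dahl S, but they carry the numbers of the congenic kidneys, so their strain was treated as unsettled and no strain comparison uses them. Both strains share the Dahl S background, an inbred line whose blood pressure rises with salt, and the congenic strain differs from it by a donor segment of chromosome 10. The donor strain, the extent of the segment, sex, diet and whether kidneys came from separate animals were not given in the sources used here, so the spread between kidneys may be technical. None of the member genes lies on chromosome 10 in the rat assembly GRCr8.

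The enzymes of these families act on arachidonic acid released from membranes. Cyp4a enzymes hydroxylate its terminal carbon to form 20-HETE, which constricts renal arterioles and inhibits sodium reabsorption in the tubule. Epoxygenases, of which Cyp2c23 is a major form in rat kidney, form epoxides that dilate vessels, and the soluble epoxide hydrolase Ephx2 turns these into diols. Por passes electrons from NADPH to all microsomal P450 enzymes. In the kidney, Cyp4a and Cyp2c23 proteins are known mainly from the proximal tubule.

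The 4 Cyp4a members lie in 1 cluster on chromosome 5 of GRCr8, in the order Cyp4a8, Cyp4a2, Cyp4a3 and Cyp4a1, with another protein-coding gene, Cyp4a2l1, and several pseudogenes among them. The promoters of the pair that 1 probe set cannot separate are shown with that of Cyp4a8, which has its own probe sets. The sequences are from RefSeq (GRCr8), run from 250 bases before to 50 bases after the start site that the promoter table uses, and are given 5′ to 3′ on the strand of the gene, which is the minus strand for each. For Cyp4a3 that start site lies inside the outermost bound of the gene in the same assembly, and for Cyp4a2 and Cyp4a8 it is the bound itself. Capitals mark AGGTCA, the hexamer that nuclear receptors such as Ppara bind in direct repeats.
Cyp4a2, chr5:134170859-134171158: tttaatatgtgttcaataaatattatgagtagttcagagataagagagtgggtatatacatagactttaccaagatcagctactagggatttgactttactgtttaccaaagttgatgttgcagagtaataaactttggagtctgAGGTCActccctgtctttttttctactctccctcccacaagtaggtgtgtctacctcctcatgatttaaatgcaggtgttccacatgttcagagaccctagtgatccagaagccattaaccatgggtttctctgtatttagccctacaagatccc
Cyp4a3, chr5:134352187-134352486: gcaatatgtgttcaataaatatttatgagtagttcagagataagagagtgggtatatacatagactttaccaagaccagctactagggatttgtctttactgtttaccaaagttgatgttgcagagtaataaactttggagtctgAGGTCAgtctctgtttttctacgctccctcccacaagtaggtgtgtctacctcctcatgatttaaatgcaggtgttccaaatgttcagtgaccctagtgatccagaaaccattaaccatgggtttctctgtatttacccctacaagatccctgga
Cyp4a8, chr5:133970177-133970476: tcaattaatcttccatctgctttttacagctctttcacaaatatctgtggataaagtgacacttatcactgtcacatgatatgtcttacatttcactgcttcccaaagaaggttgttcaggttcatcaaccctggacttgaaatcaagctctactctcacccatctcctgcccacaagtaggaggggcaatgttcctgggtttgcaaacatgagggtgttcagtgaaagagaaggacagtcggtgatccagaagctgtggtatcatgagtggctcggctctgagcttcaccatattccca

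The Cyp4a2 and Cyp4a3 promoters were 93.1% identical over 305 aligned columns, against 58.5% between Cyp4a2 and Cyp4a8 and 59.1% between Cyp4a3 and Cyp4a8. AGGTCA began 105 bases before the start site of the window in both Cyp4a2 and Cyp4a3 and was not among the letters of the Cyp4a8 window on either strand. Searched on both strands, it was present in 5 of the 9 promoter windows of the 8 member genes with an entry, and in 16.2% of all 33469 promoter windows of that length. The repeat AGGTCANAGGTCA was in 0 of these 9 and in 0.0538% of all. Cyp4a1 and Ephx2 had no entry.

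Kidney 4 stood apart from the others on each design. Low values were set to a floor, the 25th percentile (85.1 for A, 140.1 for B, 153.6 for C), and only probe sets with a mean at or over their design's median value (319.5 for A, 485.8 for B, 510.3 for C) were counted. Kidney 4 lay at least 2-fold outside the range of the other 4 kidneys for 50 of the 4411 probe sets of A, 48 of the 4385 of B and 42 of the 4420 of C. Kidney 5 had 9, 14 and 9, and the Dahl S kidneys had 3 to 24. On A the 3′ over 5′ signal ratio of the beta-actin control was 1.32 in kidney 4 and 1.35 in kidney 5, against 1.42 to 1.55 in the Dahl S kidneys. The summed signal of 24 proximal tubule marker genes on A (brightest probe set of each), all of which reached the median, was 272048 in kidney 4 and 225619 in kidney 5, against 256350 to 269080 in the Dahl S kidneys. Single genes weighed heavily in these sums. Pck1 measured 14299 in kidney 4 and 5010 in kidney 5, against 4802 to 5358 in the Dahl S kidneys. Slc34a1 (rc_AI105198_i_at) measured 51193 in kidney 4 and 33515 in kidney 5, against 48780 to 62655. The sums therefore need not follow the amount of proximal tubule. In whole kidney, fewer cells of a type and less RNA per cell cannot be told apart.

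On array A, 18 of the 21 member probe sets reached the median of all values, as did 50.5% of all probe sets other than controls. The 3 that did not were X55446mRNA_at of Cyp2c23 and X60328_at and X65083cds_at of Ephx2. The median coefficient of variation among the Dahl S kidneys was 16.9% over the 21 member probe sets and 14.7% over the 18, beside 13.1% over all 4411 tested. Kidney 4 lay above the range of the Dahl S kidneys for 6 of 21 and below it for 5, where 21.7% of all tested probe sets lay above and 32.5% below. Kidney 5 lay above it for 3 and below it for 7, where 25.2% of all tested probe sets lay above and 22.7% below. Both kidneys lay above it for 2 of 21 (8.82% of all tested) and both below it for 3 (10.1%). The shares over all tested probe sets match only the 18 members that were tested, of which kidney 4 lay above the range for 4 and below it for 5, and kidney 5 above it for 1 and below it for 7. Both kidneys lay above it for 1 of the 18 and both below it for 3. One of the 18, X60328_g_at of Ephx2, was tested only through its value in kidney 4, so these counts are a description.

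**Figure D1:**
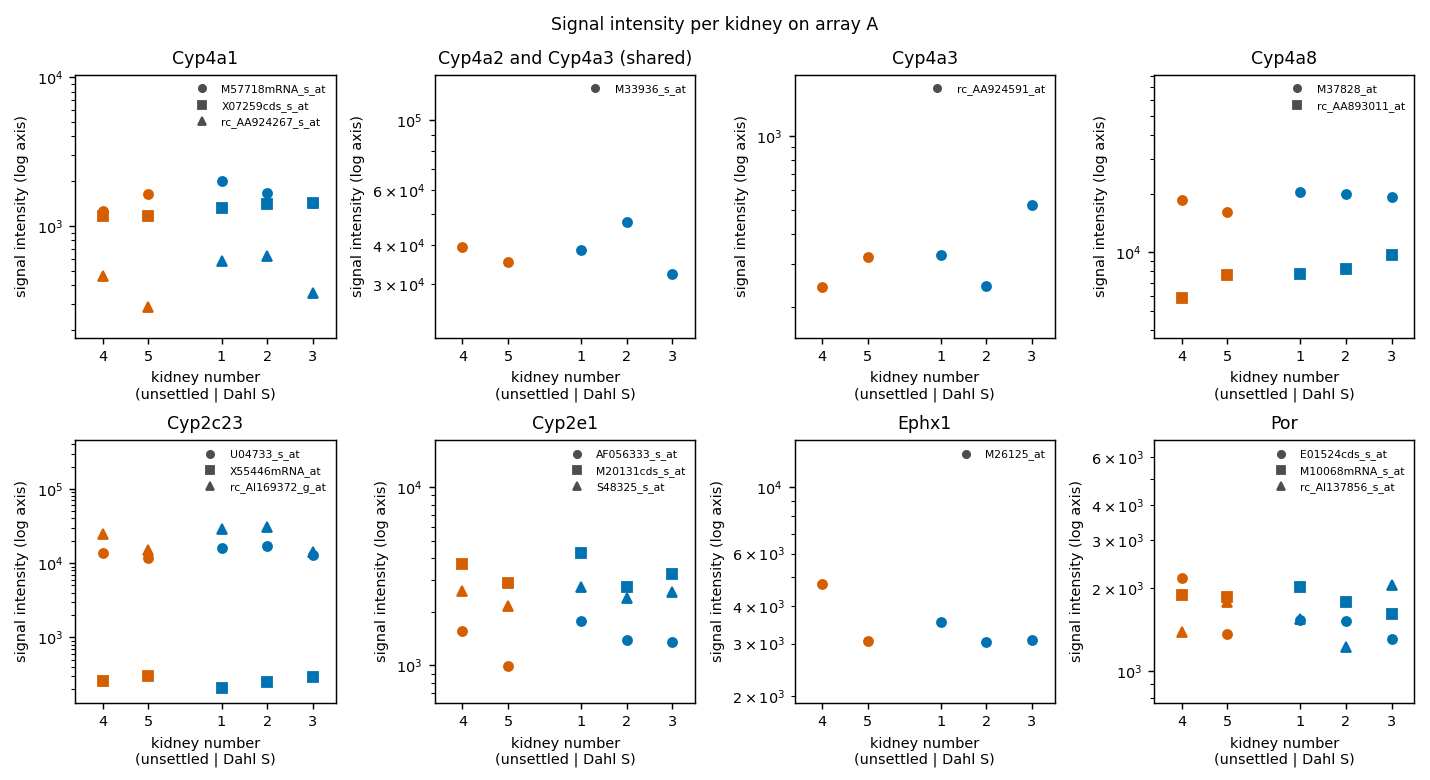
Signal intensity (log axis) of each member probe set other than those of Ephx2 on array A, with kidneys 4 and 5 (strain unsettled, orange) left of Dahl S kidneys 1 to 3 (blue). Each point is 1 array and each symbol 1 probe set. For most probe sets kidneys 4 and 5 lie within or just below the range of the Dahl S kidneys, while Ephx1 and E01524cds_s_at of Por are highest in kidney 4.

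Of the Cyp4a hydroxylases, the probe set shared by Cyp4a2 and Cyp4a3, M33936_s_at, measured 39401 in kidney 4 and 35231 in kidney 5, against 38393, 47192 and 32354 in Dahl S kidneys 1 to 3. Both values lay inside the Dahl S range. Which of the 2 annotated genes the signal comes from cannot be told apart. Transcript and probe sequences were not compared, and whether Cyp4a2l1 adds to the signal was not tested. The probe set annotated to Cyp4a3 alone, rc_AA924591_at, measured 241.5 in kidney 4 and 320.3 in kidney 5, against 327.6, 244.5 and 521.6 in the Dahl S kidneys, a Dahl S mean of 365 ± 142 (SD, n = 3). Its values spread 2.13-fold among the Dahl S kidneys, so kidney 4, just under their lowest value, cannot be set apart from them.

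Cyp4a8, another hydroxylase of the cluster, had 2 probe sets on array A. Its probe set M37828_at measured 18573 in kidney 4 and 16129 in kidney 5, against 20281, 19907 and 19299 in the Dahl S kidneys, with a coefficient of variation of 2.50% in Dahl S. Its other probe set on A, rc_AA893011_at, measured 5869 in kidney 4 and 7700.2 in kidney 5, against 7717, 8213 and 9753 in the Dahl S kidneys, with a coefficient of variation of 12.4% in Dahl S. Kidneys 4 and 5 lay below all Dahl S kidneys on both probe sets, with log2 differences from the Dahl S mean of −0.09 in kidney 4 and −0.30 in kidney 5 for M37828_at, and of −0.54 and −0.15 for rc_AA893011_at. The probe sets thus put a different one of these kidneys lowest.

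Cyp4a1, the form that peroxisome proliferators induce most in rat liver, had 3 probe sets. X07259cds_s_at measured 1175 in kidney 4 and 1159 in kidney 5, against 1322, 1412 and 1424 in the Dahl S kidneys, a Dahl S mean of 1386 ± 55.5 (SD, n = 3). M57718mRNA_s_at measured 1263 in kidney 4 and 1636 in kidney 5, against 2021, 1656 and 1426 in the Dahl S kidneys. The expressed sequence tag rc_AA924267_s_at measured 458.5 in kidney 4 and 283.8 in kidney 5, against 579.5, 625.9 and 352.5 in the Dahl S kidneys. Kidney 4 was below the Dahl S range on the first 2 and kidney 5 on the first and the last, so only X07259cds_s_at placed both below it.

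Taken over its 7 probe sets, the shared one included, the Cyp4a family was above the Dahl S range in neither kidney. Kidney 4 lay below it for 5 and within it for 2, with a median log2 difference from the Dahl S mean of −0.24, and kidney 5 lay below it for 4 and within it for 3, with a median of −0.15. Over all tested probe sets the medians were −0.05 and 0.02, and 32.5% lay below the range in kidney 4 and 22.7% in kidney 5. The count for kidney 4 depended on the scaling, being 4 below and 1 above with quantile normalisation and 2 below with scaling to the median, while for kidney 5 it was 3 and 4 below. With scaling to the median, the median difference was −0.09 in kidney 4 and −0.16 in kidney 5. The suffix s marks probes that match more than 1 related transcript. The Cyp4a1 probe sets and the shared M33936_s_at carry it, so they may read related transcripts in part. The probe sets rc_AA924591_at, M37828_at and rc_AA893011_at do not carry it, and whether they read related transcripts was not tested.

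Cyp2c23, the epoxygenase, had, on one of its bright probe sets, the widest Dahl S span (highest over lowest) of the members on array A. The probe set rc_AI169372_g_at measured 24620 in kidney 4 and 15208 in kidney 5, against 29110, 30799 and 13966 in Dahl S kidneys 1 to 3. Kidney 5 and Dahl S kidney 3 were low together, and the Dahl S kidneys alone spanned 2.21-fold. U04733_s_at measured 13786 in kidney 4 and 11783 in kidney 5, against 15940, 16872 and 12818 in the Dahl S kidneys, with the same 2 kidneys lowest but a span of 1.32-fold in Dahl S. The third probe set, X55446mRNA_at, was dim, at 257.2 in kidney 4 and 296.8 in kidney 5, against 209.9, 247.5 and 294.5 in the Dahl S kidneys, and there the same 2 kidneys were highest.

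Other genes followed the rc_AI169372_g_at pattern of Cyp2c23 across the 5 kidneys of array A. Likeness was the root mean square distance of log2 values, each centred on its own mean over the 5 arrays, and the median distance over the other 4410 tested probe sets was 0.53. The nearest named genes were Hspd1, a mitochondrial chaperonin (0.13), Psat1, a serine synthesis enzyme (0.13), and Cap1, a regulator of actin (0.15). Among members, the nearest was rc_AA924267_s_at of Cyp4a1 at 0.16, 13th of all. The shared Cyp4a2 and Cyp4a3 probe set was nearest to Bak1, a trigger of cell death (0.04), Edn3, an endothelin peptide (0.04), and Pip4k2c, a lipid kinase (0.05), with a median distance of 0.27 and with U04733_s_at of Cyp2c23 as nearest other member (0.12). Over only 5 arrays such likeness is a description.

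**Figure D2:**
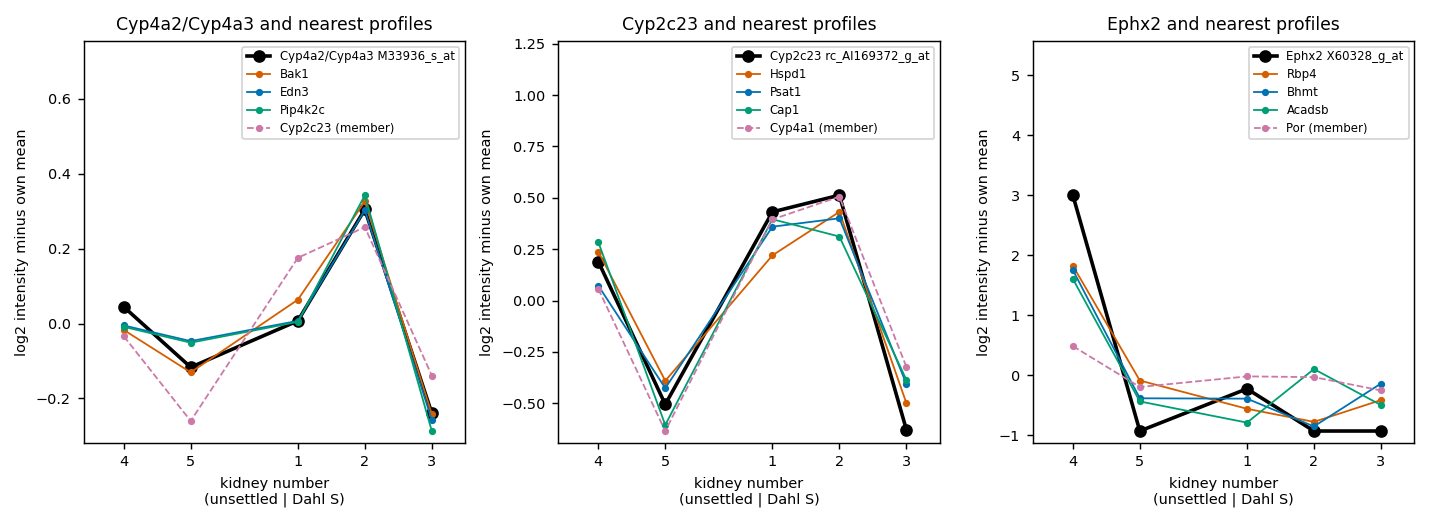
Log2 signal intensity minus the probe set's own mean over the 5 kidneys of array A for 3 member probe sets (black), the 3 nearest named genes and the nearest probe set of another member (dashed). Kidneys 4 and 5 stand left of Dahl S kidneys 1 to 3, and the lines only join points of 1 probe set. The Cyp2c23 probe set is low in kidney 5 and Dahl S kidney 3, and the Ephx2 probe set is high in kidney 4.

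Cyp2e1, which oxidises ethanol and small solvents and also hydroxylates fatty acids, had 3 probe sets on array A. M20131cds_s_at measured 3695 in kidney 4 and 2896 in kidney 5, against 4259, 2753 and 3251 in the Dahl S kidneys. S48325_s_at measured 2622 in kidney 4 and 2155.5 in kidney 5, against 2753, 2405 and 2584 in the Dahl S kidneys. AF056333_s_at measured 1562 in kidney 4 and 986.5 in kidney 5, against 1775, 1392 and 1356 in the Dahl S kidneys. Kidney 4 was within the Dahl S range on all 3, and kidney 5 was below it on the last 2.

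The soluble epoxide hydrolase Ephx2 was higher in kidney 4 than in any other kidney of array A on all 4 of its probe sets. X60328_g_at measured 1293 in kidney 4 and 75.4 in kidney 5, against 138.5, 66.2 and 77.2 in the Dahl S kidneys. X65083cds_at measured 774.7 in kidney 4 and 115.1 in kidney 5, against 51.1, 58.0 and 77.7 in the Dahl S kidneys. X60328_at measured 548.8 in kidney 4 and 34.6 in kidney 5, against 26.1, 30.7 and 39.3 in the Dahl S kidneys. On these 3 probe sets kidney 5 and the Dahl S kidneys lay near or below the floor of 85.1, and kidney 4 lay far above it.

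The fourth Ephx2 probe set had signal in every kidney. The expressed sequence tag rc_AI104882_s_at measured 2319 in kidney 4 and 1416 in kidney 5, against 1110.2, 940.1 and 1054 in the Dahl S kidneys, a Dahl S mean of 1035 ± 86.7 (SD, n = 3). Kidney 4 was 2.25-fold above the mean of the Dahl S kidneys, taken on log2 values, and kidney 5 also lay above the Dahl S range. Where the Dahl S values were all below the floor, the fold is a bound, and kidney 4 was at least 9.10-fold higher on X65083cds_at and at least 6.45-fold higher on X60328_at. Kidney 4 was at least 2-fold above the highest Dahl S value, after the floor, on 4 of 21 member probe sets, each of Ephx2. Of the 18 tested members 2 were, X60328_g_at and rc_AI104882_s_at, where 0.68% of all tested probe sets were. Kidney 5 was so on 0 of 21, beside 0.068% of all tested. X60328_g_at was tested only through kidney 4, and in 2 of the 3 Dahl S kidneys and in kidney 5 it lay below the floor, so the size of its difference depends on the floor. These are values of 1 kidney of unsettled strain and were not tested.

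The genes nearest to X60328_g_at of Ephx2 in pattern were Rbp4, the plasma carrier of retinol (distance 0.71), Bhmt, which methylates homocysteine (0.71), and Acadsb, an acyl-CoA dehydrogenase of branched chains (0.87), with a median distance over all tested of 1.56. Rbp4 measured 1669 in kidney 4 and 444.3 in kidney 5, against 320.7, 275.7 and 354.5 in the Dahl S kidneys. Bhmt measured 1508 in kidney 4 and 343.6 in kidney 5, against 342.2, 248.4 and 407.1. Of a list of 18 liver marker genes, the brightest probe sets summed to 5702 in kidney 4 and 6045 in kidney 5, against 5677 to 6082 in the Dahl S kidneys. Only 7 of the 18 genes reached the median of all values, and 2 were below the floor in every kidney. The sum of kidney 4 rests in part on its high value of F2, given below. The brightest albumin probe set (Alb), under the median of all values, measured 111.4 in kidney 4 and 138.9 in kidney 5, against 146.1 to 181.1 in the Dahl S kidneys. Single genes of the list differed in both directions. Prothrombin (F2) measured 1044 in kidney 4 and 474.4 in kidney 5, against 341.0, 465.1 and 437.0 in the Dahl S kidneys. The apolipoprotein Apoa2, under the median of all values, measured 131.5 in kidney 4 and 131.7 in kidney 5, against 37.3, 55.7 and 40.3. For other genes kidney 4 lay below the Dahl S range. Among these, Cps1 (M11710cds_s_at) measured 257.7 against 357.2 to 485.7, and Ttr (rc_AA945169_at) 312.7 against 346.3 to 707.1. The part of other cells in the Ephx2 values was not tested.

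The genes beside Ephx2 on chromosome 15 of GRCr8 were read in the same kidneys. Of the 5 nearest tested genes on each side in gene order, up to 61 genes away, kidney 4 minus the Dahl S mean ranged from −1.10 for Clu, a secreted chaperone, to 0.28 for Ppp2r2a, a phosphatase subunit. Ppp2r2a measured 2149 in kidney 4 and 1967 in kidney 5, against 1791, 1674 and 1864 in the Dahl S kidneys, so both kidneys lay above the Dahl S range, and for the other 9 genes kidney 4 lay within or below it. Clu itself measured 2409 in kidney 4 and 4555 in kidney 5, against 10040.4, 2976.5 and 4605 in the Dahl S kidneys, so that Dahl S kidney 1 was the one apart.

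**Figure D3:**
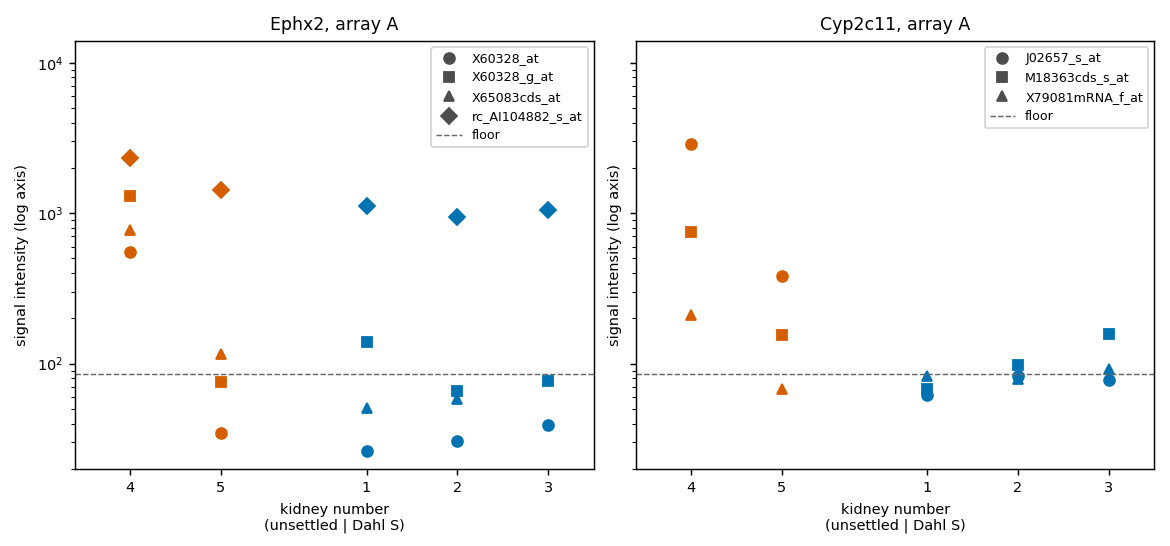
Signal intensity (log axis) of the 4 Ephx2 probe sets and the 3 Cyp2c11 probe sets of array A, with kidneys 4 and 5 (strain unsettled, orange) left of Dahl S kidneys 1 to 3 (blue). Each point is 1 array, and the dashed line is the floor at 85.1. Kidney 4 is the highest on all 7 probe sets.

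The microsomal epoxide hydrolase Ephx1, which acts mainly on foreign epoxides, was also highest in kidney 4. M26125_at measured 4742 in kidney 4 and 3050.3 in kidney 5, against 3538, 3044 and 3082 in the Dahl S kidneys, a Dahl S mean of 3221 ± 275 (SD, n = 3). Kidney 5 lay inside the Dahl S range. The difference of kidney 4 from the Dahl S mean was 0.56 on the log2 scale, 203rd from the highest of 4411.

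The 3 probe sets of Por, the electron donor, did not move together. E01524cds_s_at measured 2179 in kidney 4 and 1359.8 in kidney 5, against 1537, 1524 and 1307 in the Dahl S kidneys. M10068mRNA_s_at measured 1888 in kidney 4 and 1857.5 in kidney 5, against 2025, 1789 and 1618 in the Dahl S kidneys. The expressed sequence tag rc_AI137856_s_at measured 1382 in kidney 4 and 1789 in kidney 5, against 1543, 1227 and 2052 in the Dahl S kidneys. Kidney 4 was highest on the first of these alone, and kidney 5 lay inside the Dahl S range on all 3.

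**Figure D4:**
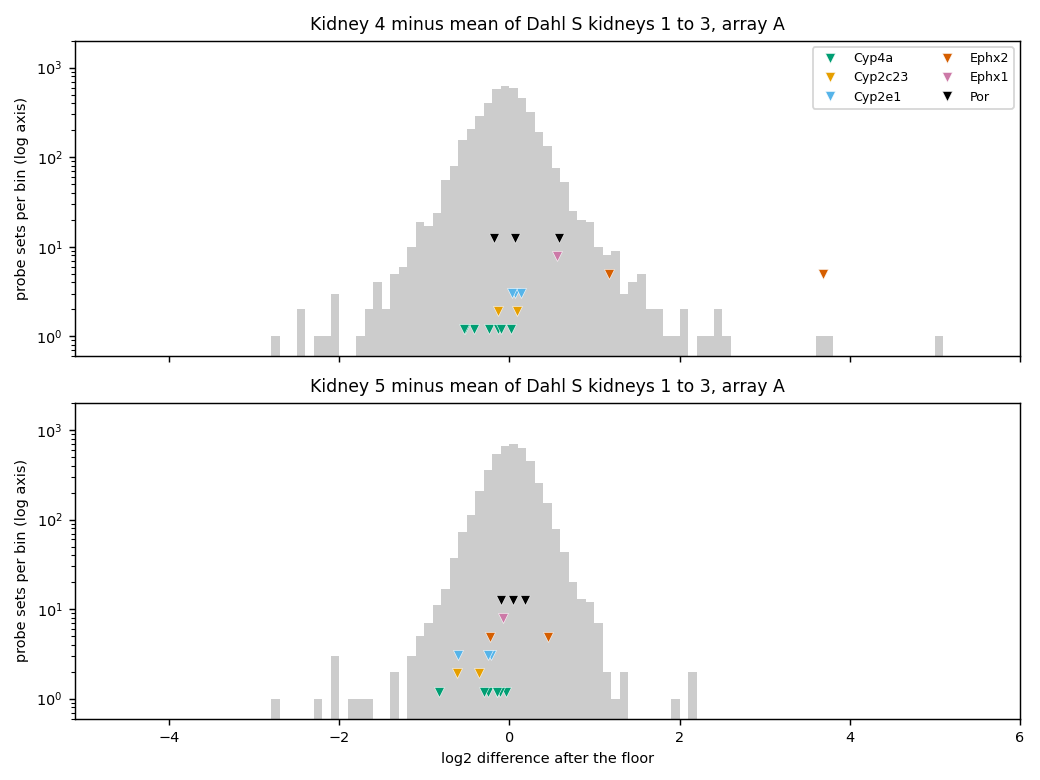
Log2 difference of kidney 4 (upper) and kidney 5 (lower) from the mean of Dahl S kidneys 1 to 3, after the floor, for the 4411 tested probe sets of array A (grey bars, counts on a log axis) and the 18 member probe sets among them (triangles, set at arbitrary heights). An Ephx2 probe set lies at 3.69, a size that depends on the floor, and another at 1.17 in kidney 4, and the Cyp4a probe sets lie between −0.83 and 0.02 over both kidneys.

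On array C, where kidneys 4 and 5 are labelled congenic, Cyp2e1 was the 1 member gene with a tested probe set. The probe set rc_AA819450_i_at measured 765.7 and 929.5 in congenic kidneys 4 and 5, against 472.3, 592.2 and 407.1 in the Dahl S kidneys. The strains did not overlap, as for 10.2% of the 4420 tested probe sets of array C in this direction. The means were 848 ± 116 in congenic kidneys (SD, n = 2) and 491 ± 93.9 in Dahl S kidneys (SD, n = 3), a 1.74-fold difference that did not pass the threshold (log2 difference 0.80, SE 0.19, limma adjusted p = 0.739). Its 95% confidence interval before adjustment was 0.35 to 1.25, and its p was the 22nd smallest of the design. At an adjusted p of 0.05 limma called 0 of the 4420 probe sets (0%), and 274 had an unadjusted p under 0.05 (6.2%).

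The second Cyp2e1 probe set of array C, rc_AA819450_f_at, comes from the same tag. It measured 177.5 and 191.0 in congenic kidneys, against 52.9, 144.6 and 137.3 in the Dahl S kidneys. All 3 Dahl S values were below the floor of 153.6, and with a mean below the filter it was not tested. When all probe sets were fitted, its log2 difference after the floor was 0.26 (SE 0.037, limma adjusted p = 0.422), with all 3 Dahl S values set to the floor. On array A kidneys 4 and 5 did not lie above the Dahl S range on any of the 3 Cyp2e1 probe sets, so the direction on array C was not seen there under the same kidney numbers. For the GAPDH control of array C, the 3′ signal over the 5′ signal was 1.05 in both congenic kidneys, against 1.09, 1.09 and 1.11 in the Dahl S kidneys, and its part in the Cyp2e1 difference was not tested. Without congenic kidney 5 the log2 difference was 0.66, and without congenic kidney 4 it was 0.94.

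Cyp4a8 on array C was below the filter. Its probe set rc_AI232277_at measured 484.5 and 275.7 in congenic kidneys, against 374.5, 403.1 and 516.6 in the Dahl S kidneys. The congenic kidneys lay on either side of the Dahl S mean of 431 ± 75.2 (SD, n = 3). When all probe sets were fitted, the log2 difference was −0.23 with an SE of 0.33.

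**Figure D5:**
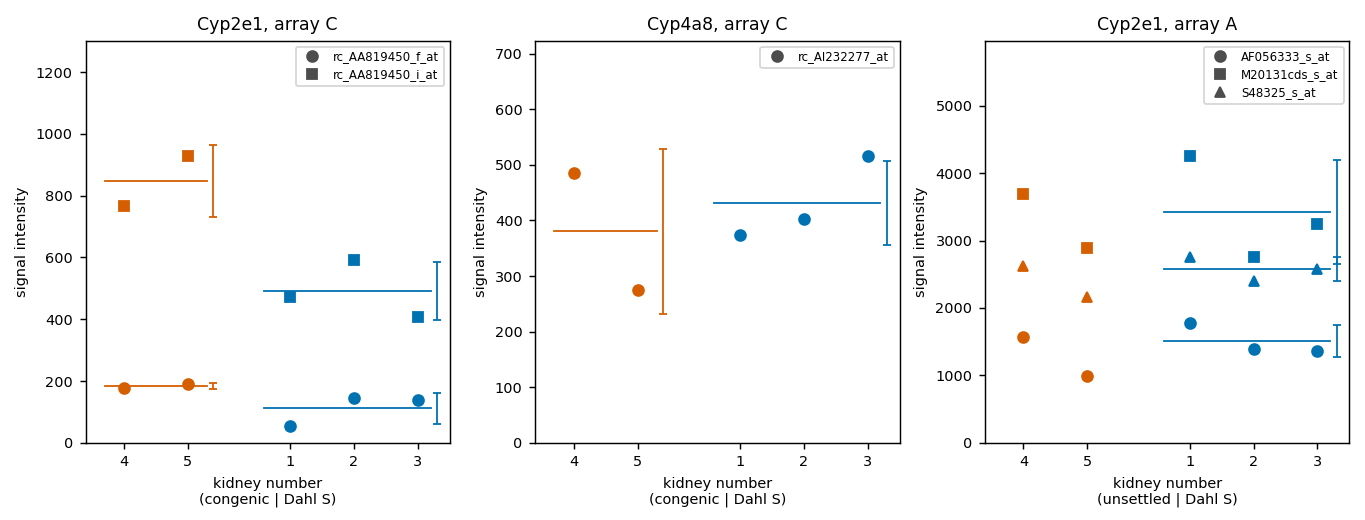
Signal intensity of Cyp2e1 and Cyp4a8 on array C (congenic kidneys 4 and 5 in orange, left of Dahl S kidneys 1 to 3 in blue) and of Cyp2e1 on array A (strain of kidneys 4 and 5 unsettled). Points are single arrays, horizontal lines are group means and bars beside them ± 1 SD. On array C both congenic kidneys lie above the Dahl S kidneys for Cyp2e1. On array A kidneys 4 and 5, of unsettled strain, do not lie above them.

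The wider arachidonic acid pathway was read from a list of 55 genes, namely other P450 enzymes, cytochrome b5 electron donors, lipoxygenases and phospholipases. On array A 37 of them had 64 probe sets of their own, of which 27 were tested. Kidney 4 lay above the Dahl S range for 8 of the 27 and below it for 12, with a median log2 difference of −0.02, and kidney 5 lay above it for 10 and below it for 7, with a median of 0.11. Over all tested probe sets the shares were 21.7% above and 32.5% below in kidney 4, and 25.2% above and 22.7% below in kidney 5. The list gene with the widest span was Cyp2c11, a male-specific P450 of rat liver that also epoxidises arachidonic acid. Its probe set J02657_s_at measured 2900.4 in kidney 4 and 380.6 in kidney 5, against 62.3, 83.2 and 78.4 in the Dahl S kidneys. The Dahl S values were below the floor, so that kidney 4 was at least 34.1-fold higher. J02657_s_at reached the filter only through its value in kidney 4, so its place in the counts and in the ranking by span is a description. The next were Alox15, a lipoxygenase, whose L06040_s_at measured 139.7 in kidney 4 and 682.5 in kidney 5, against 679.6, 312.2 and 412.6 in the Dahl S kidneys, and Cyp1b1, whose U09540_at measured 263.0 in kidney 4 and 486.1 in kidney 5, against 617.8, 361.3 and 333.2. Kidney 4 was the lowest for both.

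On the other designs 0 genes of the pathway list passed with limma, of 5 tested probe sets on B and 3 on C, and 0 of these had an unadjusted p under 0.05, beside 3.49% of all tested on B and 6.2% on C. On B, where 4 of 4385 tested probe sets passed (0.0912%), 4 of the 5 differences were positive with a median of 0.06, and on C all 3 were, with a median of 0.26, beside −0.01 over all tested probe sets of each design. The fatty acid hydroxylase Cyp4v3 measured 1623 and 2220.1 in congenic kidneys on C, against 1569, 1329 and 1437 in the Dahl S kidneys (limma adjusted p = 0.794). Pla2g15, a lysosomal phospholipase, measured 1655 and 1770 in congenic kidneys on C, against 1512, 1577 and 1223 (adjusted p = 0.865). On these 2 probe sets the strains did not overlap, as for 10.2% of tested probe sets of C in this direction. Their differences of 0.40 and 0.26 on the log2 scale did not pass. The tested Cyp4v3 probe set of B, rc_AA946300_at, measured 787.5 and 941.3 in congenic kidneys, against 915.5, 1103 and 552.9, so there the strains overlapped. The others named by the same rule were Cyp2b1 on C and Cyp4f17, Cyb5b and Pla2g12a on B, with log2 differences of 0.09, −0.28, 0.27 and 0.18 and adjusted p of 0.944 to 0.998.

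Cyp4a genes are induced through the nuclear receptor Ppara, and a list of 47 genes was set beside them. It held that receptor, its partner Rxra, its cofactors Ppargc1a and Ncor1, and its known targets. On array A 45 of its 61 probe sets were tested. Kidney 4 lay above the Dahl S range for 18 and below it for 12, with a median log2 difference of 0.06, and kidney 5 lay above it for 5 and below it for 15, with a median of −0.09. Over all tested probe sets the shares were those given above, 21.7% above and 32.5% below in kidney 4 and 25.2% and 22.7% in kidney 5. Ppara itself (M88592_at) measured 269.9 in kidney 4 and 268.7 in kidney 5, against 257.5, 240.4 and 241.6 in the Dahl S kidneys, under the median of all values. Of the 3 list genes with the widest spans, Hsd17b4, an enzyme of peroxisomal beta-oxidation, measured 848.9 in kidney 4 and 153.9 in kidney 5, against 343.3, 364.6 and 350.5 in the Dahl S kidneys (rc_AI101743_s_at). Acsm3, an acyl-CoA synthetase, measured 593.1 in kidney 4 and 1237 in kidney 5, against 1791, 1758.5 and 1574. Etfdh (rc_AI237007_at) measured 4.7 in kidney 4 and 726.9 in kidney 5, against 964.4, 18.8 and 611.8, so that 2 kidneys, 1 of them Dahl S, lay below the floor. Its other tested probe sets did not follow it, with rc_AI176422_at at 1122 and rc_AI176422_g_at at 1838 in kidney 4, the highest of the 5 kidneys on both, against 815.1 to 1106 and 1211.5 to 1801 in the Dahl S kidneys.

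Of the Ppara list, 0 genes passed with limma on B or C. Of 8 tested probe sets on B and 6 on C, 0 and 1 had an unadjusted p under 0.05. Over all tested probe sets the shares were 3.49% on B and 6.2% on C. The 1 probe set on C was of Eci2, an isomerase of fatty acid oxidation. Eci2 measured 1714 and 1811.5 in congenic kidneys, against 2586, 3212.5 and 2473 in the Dahl S kidneys on C (log2 difference −0.64, SE 0.16, limma adjusted p = 0.739). The strains did not overlap, as for 12.2% of tested probe sets of C in this direction. The others named were Acot8 and Rxra on C and Acaa1a, Crat and Ncor1 on B, with log2 differences between 0.19 and 0.54 and adjusted p of 0.865 to 0.998. Acaa1a, the peroxisomal thiolase, measured 4901 and 4852 in congenic kidneys on B, against 4119, 4140.5 and 3800 in the Dahl S kidneys. The strains did not overlap, as for 7.73% of tested probe sets of B in this direction (9.44% in the other).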

How the data were processed

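Total RNA of kidneys was measured on 15 single-channel oligonucleotide arrays of 3 designs, 5 per design. The deposited values were 1 signal intensity for each probe set, on a linear scale between 0 and 92415. The authors' software and steps were not given in the sources used here. Arrays had been scaled before deposit, as the mean without the top and bottom 2% was 1000.6 to 1001.3 on each. That scale was kept, and whether a background was subtracted is unknown.

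Designs were analysed separately, with a floor at the 25th percentile and then log2. Probe sets whose mean over 5 arrays reached the median of all values were tested, without the 59 control probe sets of each design. This left 4411 (A), 4385 (B) and 4420 (C) probe sets. Symbols came from the platform annotation, updated by gene identifier to RefSeq of GRCr8. Of probe sets with 1 symbol, the match covered 6985 of 7006 (A), 5333 of 5351 (B) and 5804 of 5821 (C). Those with several symbols (308, 38 and 45) or none (1426, 3343 and 2864) were not named, apart from the shared Cyp4a2 and Cyp4a3 probe set. Congenic and Dahl S kidneys were compared on B and C with lmFit and eBayes of limma 3.58.1 (R 4.3.3) and Benjamini-Hochberg adjustment over all tested probe sets at 0.05. The fit was tested on simulated data with independent normal errors of the same spread in every array. No kidney stood apart in that simulation, so it does not show how the fit behaves with kidney 4. The number of arrays limits the precision.

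Every member probe set is named. Of each gene list, members past the threshold or else the 3 genes with the smallest p are named on B and C, and on A the 3 with the widest span. Nearest profiles are the 3 named genes with the smallest distance. Members and lists were chosen with earlier results of these data known. The alternatives were other scalings, floors, filters and variance models, array weights, and leaving out each array. Promoters were aligned with Biopython 1.88.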

Additional observations from a re-analysis of the deposited data

Results flagged for a closer look

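Kidneys 4 and 5 of array A entered no comparison between strains, and values there that were at least 2-fold above the highest Dahl S kidney, after the floor, are listed for the members and the pathway list. For Ephx2 all 4 probe sets met this in kidney 4, at 1293 for X60328_g_at, 774.7 for X65083cds_at, 548.8 for X60328_at and 2319 for rc_AI104882_s_at. For Cyp2c11 all 3 probe sets met it in kidney 4, at 2900.4 for J02657_s_at, 748.5 for M18363cds_s_at and 212.1 for X79081mRNA_f_at, and J02657_s_at met it also in kidney 5, at 380.6. The other Cyp2c11 probe sets of kidney 5, at 155.4 and 67.4, lay within or below the Dahl S ranges of 68.1 to 156.2 and 78.5 to 92.3. M18363cds_s_at and X79081mRNA_f_at of Cyp2c11 and X65083cds_at and X60328_at of Ephx2 were below the filter. J02657_s_at and X60328_g_at reached the filter only through kidney 4. Among all tested probe sets of A, 0.68% met this rule in kidney 4 and 0.068% in kidney 5. These differences were not tested.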

How the results depend on the processing

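On array B 4 probe sets passed, none of them a member. This count was 1 with quantile normalisation, with median scaling, with a floor at the 10th or the 40th percentile, with a filter at the 75th percentile and with array quality weights. It was 0 to 31 when 1 array was left out, and 31 arose without congenic kidney 5. On array C the count of 0 became 2 without a filter and 1 with an intensity trend and robust variance, and it was 0 to 35 when 1 array was left out, with 35 without congenic kidney 5. The cause was not tested. The Cyp2e1 difference on array C kept its sign and stayed past no threshold in every setting in which it was tested, at 0.66 to 0.94 when 1 array was left out (adjusted p 0.535 to 0.995). A filter at the 75th percentile removed that probe set. Leaving out 1 array gave log2 differences of −0.10 to 0.45 for Pla2g12a and −0.14 to 1.21 for Ncor1 on B and of −0.043 to 0.21 for Cyp2b1 on C, each negative without congenic kidney 4 alone, and no other named list gene changed sign. The Ephx2 difference of kidney 4 on array A, in settings chosen after seeing the data, was 2.69 to 3.91 for X60328_g_at, 1.95 to 3.66 for X65083cds_at, 1.46 to 4.12 for X60328_at and 1.10 to 1.31 for rc_AI104882_s_at. The lowest value of the first 3 came with the floor at the 40th percentile. Counts apart from all other kidneys by at least 4-fold were also highest in kidney 4, at 8, 12 and 10 on A, B and C, beside 0 to 7 elsewhere. No paired analysis was possible because the congenic and Dahl S kidneys share no replicate number.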

Other observations

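On array B, kidney 4 was also apart for Pla2g12a, a secreted phospholipase, which was looked at after its values were seen. The probe set rc_AA849518_at measured 1097 in congenic kidney 4 and 73.4 in congenic kidney 5, against 111.6, 65.9 and 82.5 in the Dahl S kidneys. Its partner rc_AI007884_at measured 759.0 in congenic kidney 4 and 350.5 in congenic kidney 5, against 357.4, 294.9 and 391.2. The third, rc_AA849518_g_at, measured 3130 and 2135, against 2267, 2583 and 2038. Kidney 4 was the highest on all 3, and kidney 5 lay within the Dahl S range. However, rc_AA849518_at and rc_AI007884_at were below the filter of B. On the tested rc_AA849518_g_at kidney 4 was less far apart, at 3130 against a highest Dahl S value of 2583. Of the 4385 tested probe sets of B, kidney 4 lay at least 2-fold above all other kidneys for 12.

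On array A, some other genes of fatty acid handling, also looked at after their values were seen, had kidney 4 outside the Dahl S range. Over all tested probe sets of A, kidney 4 lay above that range for 21.7% and below it for 32.5%, so this is not particular to these genes. Hsd17b4 measured 5948 (S83279_g_at), 4038 (S83279_at) and 6274 (rc_AI013834_s_at) in kidney 4, against 2102 to 2729, 1361 to 1423 and 3413 to 3667 in the Dahl S kidneys. Cyp4f1, a hydroxylase of leukotrienes and arachidonic acid, measured 8249 in kidney 4 and 4312 in kidney 5, against 5299, 4160 and 3696. Acaa2, the mitochondrial thiolase, ran the other way, at 2682 in kidney 4 and 4136 in kidney 5, against 6424, 6272 and 5925. Kidney 5 thus also lay below the Dahl S range for Acaa2.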
